A study of Mus musculus with 105 samples.

Results

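The replication-dependent histone genes encode the core histones H2A, H2B, H3 and H4, which form the nucleosome, and the linker histone H1, which binds the DNA between nucleosomes. They were taken as the mouse genes whose symbols begin with Hist1h, Hist2h, Hist3h or Hist4h, with pseudogenes left out. This gave 65 of the 22322 genes counted, of which 6 encode H1, 18 H2A, 16 H2B, 12 H3 and 13 H4. The large cluster on chromosome 13 holds 52 of them, chromosome 3 holds 10, chromosome 11 holds 2, and chromosome 6 holds Hist4h4 alone.

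Most mRNAs end in a poly(A) tail, but those of the replication-dependent histones end just after a short RNA stem-loop that the stem-loop binding protein SLBP holds. The mRNAs accumulate while DNA is copied in S phase and are degraded quickly when copying stops. That degradation is known to need translation of the mRNA up to a stop codon close to the stem-loop, and it draws on SLBP, the helicase UPF1, uridine-adding enzymes, the Lsm ring and the exonuclease ERI1.

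Total RNA was sequenced from CD4+ T cells of female C57BL/6J mice of 6 weeks, purified by negative selection from spleen and lymph nodes. The cells were either activated on magnetic beads that carry antibodies to CD3 and CD28 or left resting. How long they were activated, how many mice a library holds and whether polyadenylated RNA was selected are not given in the sources used here. If polyadenylated RNA was selected, capture of histone mRNAs may differ between genes and conditions. Changes in counts may then differ from changes in mRNA amount, which was not tested. In each of the 35 groups 3 libraries carry replicate numbers 2, 3 and 4. The p-values rest on the spread between libraries within groups, estimated over all 35 groups together.

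Activated cells make up 21 groups and resting cells 14. Both states were given the translation inhibitors cycloheximide (100 µg/ml, which stops ribosome elongation) or harringtonine (2 µg/ml, which stops ribosomes just after initiation) alone for 1 or 3 h. Both were also given the transcription inhibitor triptolide (25 µM, which blocks initiation by RNA polymerase II), sampled at 0, 1 and 3 h alone and at 1 and 3 h with either translation inhibitor. Activated cells alone were given DRB (65 µM, an inhibitor of the kinase CDK9 that releases paused RNA polymerase II) on the same plan. Untreated cells of both states were sampled at 0, 1 and 3 h. Equal cell numbers were taken at every time point, and ERCC spike-ins, synthetic RNAs of known amount, were added.

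Exon counts ranged from 6300 to 6479221 per library with a median of 2135827. The library of resting cells with triptolide for 1 h, replicate 3, had 6300 counts and 2 counts of histone genes, and activated untreated 0 h, replicate 3, had 141028 and 277. The next library held 551975. T cell marker genes (Cd3d, Cd3e, Cd3g, Cd4, Lck) summed to between 672.8 and 1982 CPM (read counts scaled to a common library size by TMM) in all libraries but the one of 6300 counts. The CD8 markers summed to at most 18.7 CPM, the B cell markers to at most 18.4 CPM, and the myeloid, NK cell and erythroid lists to at most 31.6 CPM. The plasma cell markers (Jchain, Sdc1, Mzb1) stood between 12.8 and 224 CPM in activated and between 42.7 and 741 CPM in resting libraries.

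The stem-loop is the feature that sets these mRNAs apart, so it was looked for in the annotated transcripts (GENCODE M21 on mm10). The pattern searched on the sense strand was GGNNNTNNNNANNNCC, with a stem of 6 perfect base pairs around a loop of 4 bases, after the stop codon. It was found in 44 of the 65 genes, in each case between 21 and 58 bases after the stop codon (median 31.5). Of the 21 genes without a match, 15 have under 30 annotated bases after the stop codon. Within 100 bases of the stop codon, 0.079% of 21612 other coding genes hold the pattern. Of the 11 replacement histone genes searched, which are expressed outside S phase as well, H2afx alone holds it. The letters fall into 8 different stem-loops. The commonest, in 24 genes of the H1, H2A, H2B and H3 classes, and the main form of H4, in 7 genes, differ in the stem. The 6 sequences below belong to genes named in the results, 1 or 2 for each class, in lower case with the stem-loop in capitals.
Hist1h1c (H1, chr13:23739507-23739532, plus strand): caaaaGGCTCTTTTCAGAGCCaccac
Hist3h2a (H2A, chr11:58955167-58955192, plus strand): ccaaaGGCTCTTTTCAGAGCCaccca
Hist1h2be (H2B, chr13:23585526-23585551, minus strand): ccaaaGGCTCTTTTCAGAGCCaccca
Hist1h3a (H3, chr13:23761885-23761910, minus strand): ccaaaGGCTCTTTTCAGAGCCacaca
Hist1h4c (H4, chr13:23698084-23698109, minus strand): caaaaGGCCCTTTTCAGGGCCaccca
Hist1h4i (H4, chr13:22040961-22040986, minus strand): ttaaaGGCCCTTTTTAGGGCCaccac

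The same likeness limits what can be counted. In 37 of the 65 genes over 50% of the 30-base windows of the exon also occur in another member, and reads that align to more than 1 place were not counted. Such genes are marked as uncertain below, and so is Hist2h2bb, which shares 59.9% of its windows with some other gene though few with members. Hist2h2aa1, which has the near-identical copy Hist2h2aa2, had 22372 exon counts but 2 over coding sequence. Other genes had as little there. Hist1h2bc, Hist1h2ap and Hist1h2ag had 2619, 1964 and 688 exon counts and 0 over coding sequence, and Hist1h4m had 8768 and 6. Hist1h2bc is not over the limit on shared windows and so is not marked as uncertain. With the main filter on low counts 54 of the 65 genes were tested, 5 of H1, 13 of H2A, 13 of H2B, 10 of H3 and 13 of H4. The 11 left out were Hist1h1t, Hist1h2aa, Hist1h2ad, Hist1h2ah, Hist1h2ao, Hist2h2aa2, Hist1h2ba, Hist1h2bp, Hist1h2br, Hist2h3c1 and Hist2h3c2.

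A few genes carried most of the level in untreated cells (6 groups, 18 libraries). Among H1 genes Hist1h1c stood at 234 ± 115 CPM per kb of exon (SD over 18 libraries), against 35.1 ± 12.3 for Hist1h1b and 31.6 ± 15.6 for Hist1h1a. Before division by exon length, Hist1h1d (79.8 CPM) and Hist1h1e (43.9 CPM) stood above Hist1h1b (26.1 CPM). The annotated exon of Hist1h1d has 7425 bases, but 19799 of its 20718 exon counts over all libraries lay over coding sequence. Hist1h1c gave 21.9% of all counts of the 65 genes on the CPM scale. Hist2h2aa1 (uncertain) led H2A at 163 ± 89.7 CPM per kb, followed by Hist2h2ac (uncertain) at 122 ± 55.6 and Hist1h2ak (uncertain) at 24.3 ± 13.7. Hist2h2bb (uncertain) led H2B at 200.1 ± 72.6 CPM per kb, far above Hist1h2bb at 31.0 ± 15.8 and Hist1h2bg (uncertain) at 15.7 ± 9.21. The leading H3 genes were closer to each other, with Hist1h3a at 38.7 ± 17.8 CPM per kb, Hist1h3f at 32.6 ± 20.4 and Hist1h3e at 22.6 ± 11.5, all uncertain and within 1 SD of their neighbours. So were the leading H4 genes on this scale, with Hist1h4h (uncertain) at 117 ± 45.0 CPM per kb, Hist1h4c at 95.8 ± 34.5 and Hist2h4 at 83.3 ± 31.1. The order depends on annotated exon length. Undivided, Hist2h4 stood at 136 CPM and Hist4h4 (2863 bases) at 115 CPM, against 55.0 CPM for Hist1h4h (470 bases). Hist1h3f then led H3 at 41.15 CPM, against 20.7 CPM for Hist1h3a. Hist1h1c, Hist2h2aa1 (uncertain) and Hist2h2bb (uncertain) led their classes on either scale. The H1 gene Hist1h1t, expressed in testis, stood lowest among H1 genes.

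**Figure D1:**
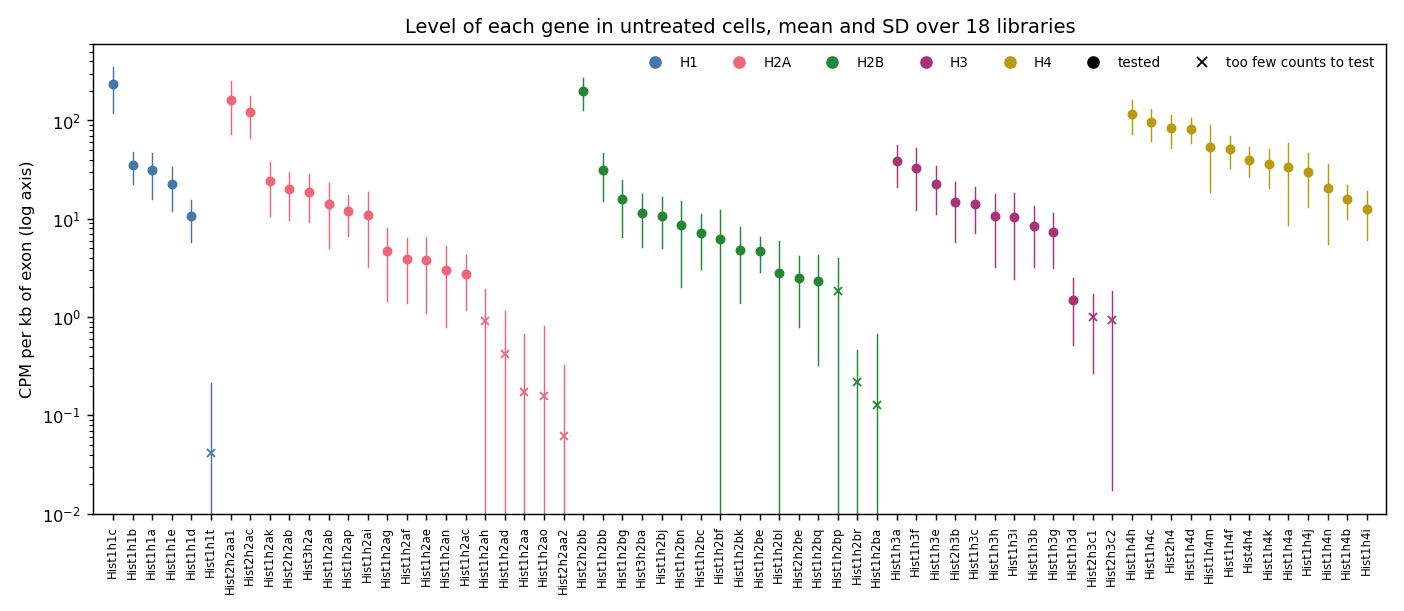
Level of each of the 65 genes in untreated cells in CPM per kb of exon (log axis), mean with SD over the 18 untreated libraries of both states, by class. Hist1h1c, Hist2h2bb (uncertain), Hist2h2aa1 and Hist2h2ac stand at 122 to 234 CPM per kb, and the crosses mark the 11 genes with too few counts to test.

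The summed level of the 65 genes moved over a wide range among the 35 groups. In activated cells it was lowest with triptolide for 3 h at a mean of 608 CPM and highest with DRB and cycloheximide for 3 h at 4086 CPM. In resting cells it was lowest with triptolide for 3 h at 516 CPM and highest with cycloheximide for 3 h at 5974 CPM. In such bulk samples, fewer cells of a type and less RNA per cell cannot be told apart. Replicate 3 was the highest library in 19 of the 21 activated groups. In resting cells replicate 2 was the highest in 9 of 14 groups and replicate 3 in the other 5.

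**Figure D2:**
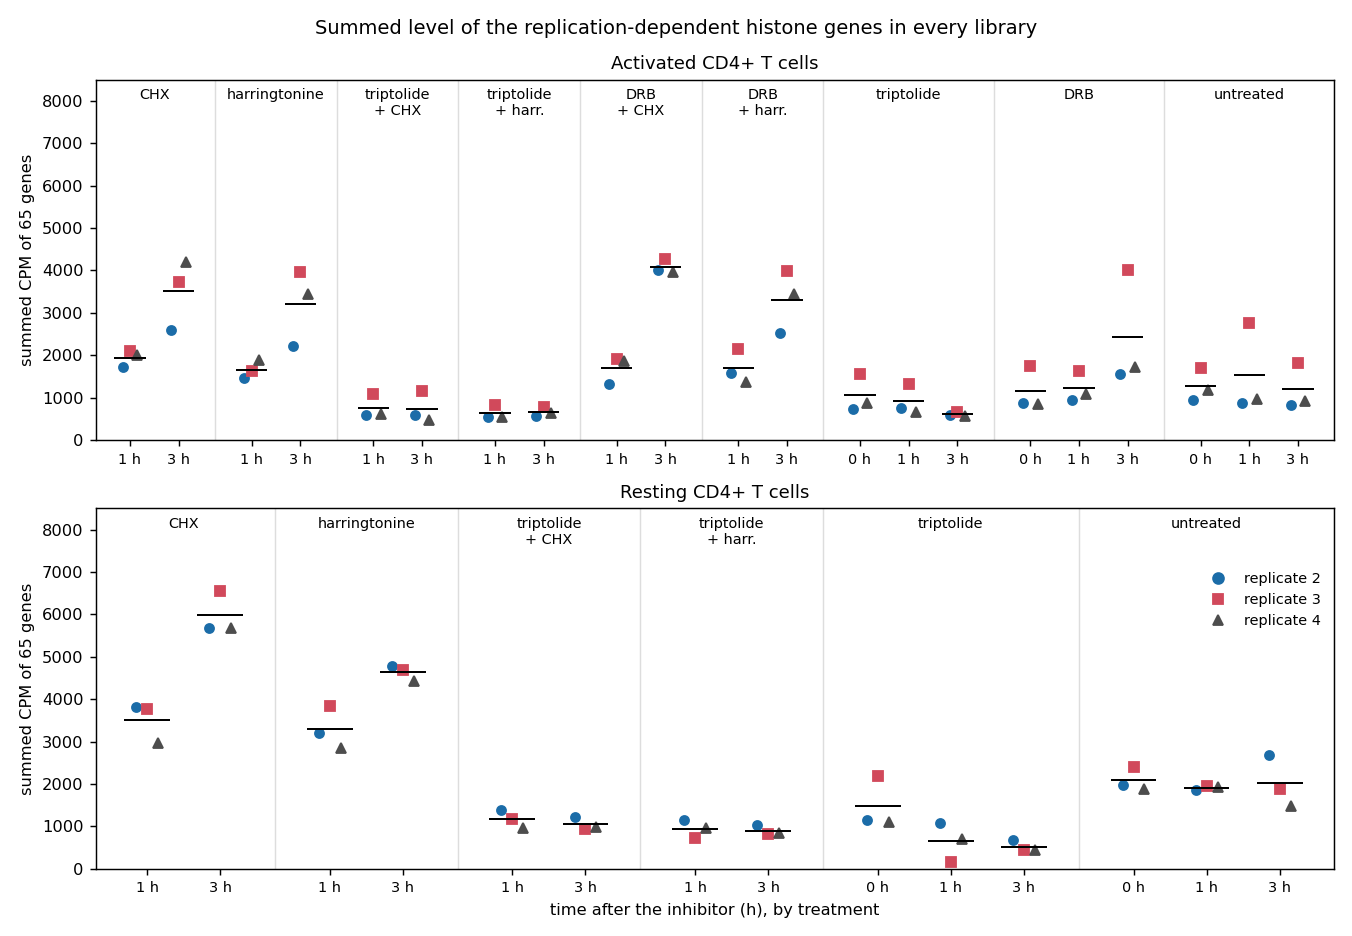
Summed CPM of the 65 genes in every library, by treatment and time, with activated cells above and resting cells below. Points are libraries by replicate number and bars are group means, which run from 608 to 4086 CPM in activated and from 516 to 5974 CPM in resting cells.

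Cycloheximide alone raised histone mRNA in both states, a comparison that asks how mRNA levels change when translation stops. In activated cells the sum at 3 h was 2603, 3737 and 4209 CPM with cycloheximide, against 831.5, 1829 and 930.7 CPM in untreated cells (replicates 2, 3 and 4 here and below). The groups did not overlap. Of the 54 genes tested, 42 were higher and 1 lower, at a Benjamini-Hochberg adjusted p under 0.05 in edgeR's quasi-likelihood F test over all 10741 genes. Of all genes tested, 15.0% were higher and 15.0% lower. The median log2 change of the 54 was 1.63, beside −0.01 for all genes.

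The rise ran through all classes. Of H1 genes 4 of 5 were higher, of H2A 6 of 13, of H2B 11 of 13, of H3 9 of 10 and of H4 12 of 13. Hist1h4c stood at 247, 319 and 345 CPM with cycloheximide, against 34.8, 77.4 and 47.4 CPM in untreated cells (log2 change 2.53 ± 0.35 SE, edgeR adjusted p = 2.1e-08). All cycloheximide libraries lay above all untreated ones, also for Hist1h4d (1.97 ± 0.31), Hist1h4i (2.43 ± 0.41) and the H3 gene Hist1h3a (uncertain, 2.43 ± 0.44). Hist1h2bl (uncertain) had no count in the untreated libraries and 27 counts with cycloheximide, at least 7.06-fold higher against a floor of 3 counts over the group. The abundant Hist2h2aa1 (uncertain) was not called, at 110.0, 173 and 68.4 CPM with cycloheximide and at 76.7, 153 and 52.6 CPM in untreated cells, with overlapping groups (0.32 ± 0.53, edgeR adjusted p = 0.705).

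The exception was the linker histone gene Hist1h1b. It fell to 10.0, 9.37 and 9.68 CPM with cycloheximide, against 20.96, 25.8 and 13.04 CPM in untreated cells (−1.02 ± 0.37, edgeR adjusted p = 0.0297). The groups did not overlap, but the call was lost when counts were scaled on spike-ins (−0.52, edgeR adjusted p = 0.388), in DESeq2 (adjusted p = 0.0521), and without replicate 2 or without replicate 3. Its annotated transcript ends at the stop codon, so no stem-loop could be looked for. The most abundant H1 gene, Hist1h1c, stood at 485, 666 and 932 CPM with cycloheximide and 109, 274 and 131 CPM in untreated cells (2.03 ± 0.40, edgeR adjusted p = 4.65e-05).

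In resting cells the sum at 3 h was 5684, 6550 and 5687 CPM with cycloheximide, against 2684, 1871 and 1474 CPM in untreated cells, again with no overlap. In resting cells 43 of the 54 were higher and none lower, beside 13.8% and 12.5% of all genes, with a median of 1.69. Of H4 genes all 13 tested were higher, as were 4 of 5 H1, 8 of 13 H2A, 9 of 13 H2B and 9 of 10 H3 genes. Hist1h4d stood at 406, 479 and 436 CPM with cycloheximide, against 131, 95.4 and 74.2 CPM in untreated cells (2.15 ± 0.31, edgeR adjusted p = 1.61e-07). Hist1h4b (uncertain) rose by 2.46 ± 0.36, Hist1h4c by 2.29 ± 0.34 and Hist4h4, the gene on chromosome 6, by 1.92 ± 0.32. Hist1h1b stood at 24.5, 29.4 and 23.6 CPM with cycloheximide and at 41.0, 32.4 and 20.4 CPM in untreated cells, with overlapping groups (−0.25 ± 0.33, edgeR adjusted p = 0.626).

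Of 46 genes called higher in either state, 39 were higher in both, or 92.9% of those in activated and 90.7% of those in resting cells. These shares stand beside the 77.8% of all 54 genes called higher in activated and the 79.6% in resting cells. The 2 comparisons share no library. The difference between the states was tested for each gene, and none of the 54 passed in edgeR or DESeq2, beside 16.6% of all genes, and 2 had an unadjusted p under 0.05. The smallest p values belonged to Hist1h2bk (uncertain, activated minus resting 1.84 ± 0.86, edgeR adjusted p = 0.133) and Hist1h2bl (uncertain, adjusted p = 0.142). Genes at or under the 50% limit of windows shared with members were called higher in 18 of 23 cases in activated and 18 of 23 in resting cells, and those over it in 24 and 25 of 31. With a stem-loop found, 30 of 37 genes were higher in activated cells (median 1.61) and 31 of 37 in resting cells (median 1.67). Of the genes tested without a match, 12 of 17 were higher in each state (medians 1.77 and 1.71).

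Spike-in scaling gives the change per ERCC molecule, and moved the median of all genes to 0.47 for cycloheximide in activated and 1.02 in resting cells. On that scale 45 of the 54 histone genes were higher in activated (median 2.11) and 53 in resting cells (median 2.72), beside 25.2% and 61.1% of all genes, and none was lower. Per 1000 ERCC counts the 65 genes held 112, 125 and 159 exon counts in activated cells with cycloheximide for 3 h, against 23.1, 43.6 and 28.0 in untreated cells. In resting cells they held 252, 195 and 192 with cycloheximide, against 58.7, 24.3 and 25.9 untreated. The lowest library with cycloheximide was above the highest untreated library in both states. Without replicate 4, 22 genes were called higher and 1 lower in activated and 18 higher in resting cells. Counts under other settings, here and below, that stand without the share of all genes show only how far calls depend on the setting. They are not results about the histone genes.

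The sums at 1 h were compared without a test across genes. In resting cells the 1 h sum was 3810, 3774 and 2966 CPM with cycloheximide, against 1853, 1955 and 1936 CPM untreated. The resting groups did not overlap, with 183% of the untreated level as a ratio of geometric means. In activated cells it was 1714, 2094 and 2016 CPM with cycloheximide, against 881.8, 2755 and 974.9 CPM untreated, and here the untreated replicate 3 lay above all cycloheximide libraries. Per spike-in the activated groups at 1 h did not overlap, with 55.0, 47.2 and 71.1 counts per 1000 ERCC counts with cycloheximide against 25.4, 40.4 and 23.5 untreated.

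Harringtonine, which stops ribosomes at the start of the message and leaves those already elongating to run off, gave a like picture against the same untreated libraries. In activated cells the sum at 3 h was 2217, 3973 and 3439 CPM with harringtonine, above all 3 untreated libraries. With harringtonine 38 of the 54 were higher and 1, Hist1h1b again, was lower (−1.13 ± 0.38, edgeR adjusted p = 0.0157), beside 15.5% and 15.5% of all genes. That call of Hist1h1b too was lost on spike-ins (adjusted p = 0.225). Hist1h4c stood at 181, 324 and 341 CPM with harringtonine, against 34.8, 77.4 and 47.4 CPM untreated (2.43 ± 0.35, edgeR adjusted p = 5.37e-08), and Hist1h4i, Hist1h4d and Hist1h3a (uncertain) rose by 2.39, 1.79 and 2.35. Without replicate 4, 23 were higher and 1 lower. In resting cells the sum was 4791, 4687 and 4427 CPM with harringtonine, above all 3 untreated libraries, and 27 genes were higher and none lower, beside 9.84% and 10.6% of all genes. With a replicate block inside each state 43 were higher, beside 17.5% of all genes, and without replicate 4 there were 8. Those called in resting cells included 12 of 13 H4 genes, 4 of 13 H2A, 7 of 13 H2B, 3 of 10 H3 and 1 of 5 H1. Hist1h4b (uncertain), of smallest p, stood at 34.6, 33.5 and 42.7 CPM with harringtonine, against 7.40, 9.004 and 9.34 CPM untreated (2.08 ± 0.36, edgeR adjusted p = 9.83e-06).

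**Figure D3:**
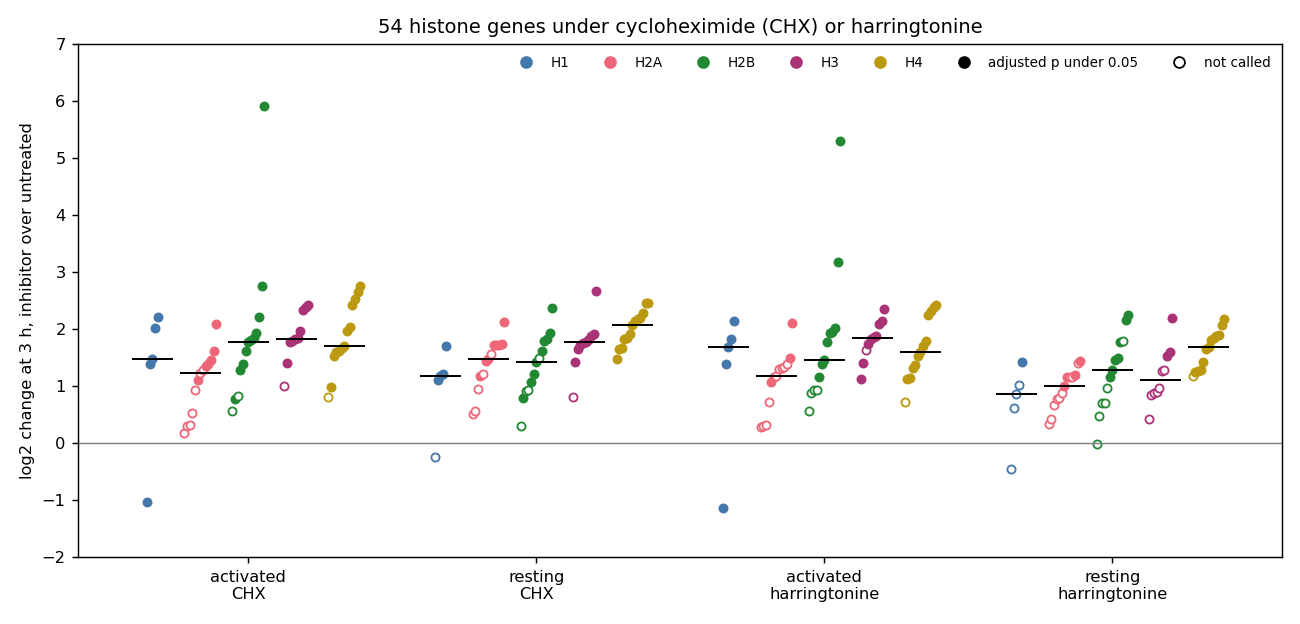
Log2 change of the 54 genes tested at 3 h, cycloheximide (CHX) or harringtonine over untreated cells, in activated and resting cells. Points are genes by class, filled where the adjusted p is under 0.05, and bars are class medians; all but Hist1h1b lie above 0 with CHX in both states. The fitted value of Hist1h2bl, the highest point in activated cells, is set against untreated libraries without a count and has no fixed size.

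Without any inhibitor no change over 3 h was called. None of the 54 genes was called between 3 h and 0 h in activated cells, beside 13.6% of all genes (6.05% higher, 7.56% lower), or in resting cells, beside 6.39% (3.03% higher, 3.36% lower), in edgeR or in DESeq2. At an unadjusted p under 0.05 there were 2 genes in activated and 0 in resting cells. The smallest p values belonged to Hist1h2bl (uncertain, adjusted p = 0.113) and Hist2h2ab (1.11 ± 0.51, adjusted p = 0.143) in activated cells. In resting cells they were those of Hist1h2bg (uncertain, −0.60 ± 0.41, edgeR adjusted p = 0.44) and Hist1h2bn (uncertain, −0.84 ± 0.58, adjusted p = 0.45), all with overlapping groups.

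Relative to other mRNAs, activated cells held less histone mRNA than resting ones at 0 h. There the sum was 951.9, 1698 and 1180 CPM in activated and 1966, 2408 and 1891 CPM in resting untreated cells. All activated libraries lay below all resting ones, at 59.7% as a ratio of geometric means. Of these genes 13 of 54 were lower and none higher, beside 12.9% and 13.9% of all genes, and all 54 estimates were below 0 (median −0.95). Per 1000 ERCC counts the groups did overlap, at 19.8, 38.1 and 30.6 in activated and 37.4, 40.2 and 45.9 in resting cells.

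Of H2B genes 7 of 13 were lower, and of the other classes 2 H1, 2 H2A, 1 H3 and 1 H4 gene. Hist3h2a, an H2A gene of chromosome 11, stood at 20.3, 18.4 and 15.0 CPM in activated, against 46.1, 58.2 and 55.2 CPM in resting cells (−1.56 ± 0.38, edgeR adjusted p = 0.00103). The H2B genes Hist2h2be (−1.97 ± 0.51) and Hist1h2bc (−1.66 ± 0.47) and the H4 gene Hist1h4j (−1.61 ± 0.48) had groups that did not overlap either. Hist2h2be and Hist1h2bc had 18 and 25 counts over the activated 0 h libraries, with 0.0 CPM in replicate 3, the library of 141028 counts. No stem-loop was found in either gene, with 2192 and 742 annotated bases after the stop codon. Spike-in scaling left 7 genes lower and none higher, beside 3.56% of all genes lower, with a median of −0.70, beside 0.18 for all genes. A replicate block inside each state gave 24 lower, beside 18.9% of all genes, and no filter on low counts gave 23. Without replicate 2 the number lower was 1, and without replicate 4 it was 5. Without the 6300-count and the 141028-count library it was 17.

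At 3 h, 21 of the 54 genes were lower in activated than in resting untreated cells and none was higher, beside 27.5% and 26.3% of all genes (median −0.84). Hist1h3b (uncertain) stood at 1.07, 2.40 and 1.74 CPM in activated, against 10.1, 8.10 and 8.08 CPM in resting cells (−2.35 ± 0.49, edgeR adjusted p = 3.6e-05). Hist3h2a was lower by −1.54 ± 0.34, Hist2h2be by −1.96 ± 0.49 and Hist1h2bk (uncertain) by −2.79 ± 0.71 on the log2 scale, with no overlap. The summed levels did overlap, at 831.5, 1829 and 930.7 CPM in activated and 2684, 1871 and 1474 CPM in resting cells. On spike-ins 2 genes were higher and 6 lower, beside 40.6% and 10.1% of all genes (median −0.18, beside 0.60 for all genes), and without replicate 2 the split was 2 higher and 5 lower. Without replicate 4, 13 were lower.

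Other genes of the cell cycle gave values in the same direction at 0 h. Of 29 S phase and cell cycle genes 27 were tested, and 7 were lower and none higher in activated cells (median −0.61), led by Mcm6, a subunit of the replicative helicase, at −1.09 ± 0.23 and Top2a, a DNA topoisomerase, at −1.14 ± 0.29. The most abundant of them after Mcm6 was Pcna, the sliding clamp of DNA polymerase, at −0.01 ± 0.25 (edgeR adjusted p = 0.989). At 3 h 5 were higher, Pcna among them at 0.85 ± 0.24, and 10 lower. The shares of all genes called at 0 h and at 3 h are those given above, and the counts of this list were not tested against them. The 29 genes summed to 810.5, 796.7 and 739.4 CPM in activated and 1179, 1016 and 956.5 CPM in resting untreated cells at 0 h. Plasma cell markers moved the same way, at 53.0, 24.5 and 67.1 CPM in activated and 463.9, 207.7 and 97.2 CPM in resting cells, and their part in the result was not tested.

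Triptolide asks how fast an mRNA is lost once transcription stops. On the depth-scaled measure, which gives changes relative to the typical mRNA, histone mRNA fell by more than the typical mRNA. In activated cells the sum was 590.5, 659.2 and 574.6 CPM after 3 h of triptolide, against 735.4, 1559 and 867.4 CPM at 0 h, with no overlap. Of the 54 genes 8 were lower and none higher, beside 26.2% lower and 21.5% higher of all genes, 47.6% in either direction (median −0.64, beside −0.03 for all genes). The share of histone genes called lower is under that of all genes.

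Hist1h1c, the leading H1 gene, stood at 54.1, 85.2 and 79.1 CPM after 3 h, against 121, 254 and 187 CPM at 0 h (−1.39 ± 0.42, edgeR adjusted p = 0.00496). Hist1h2be fell by 1.67 ± 0.48, Hist2h2bb (uncertain) by 1.05 ± 0.32 and Hist3h2a by 1.39 ± 0.46 on the log2 scale, each with groups that did not overlap. Hist1h3i (uncertain) had 12 counts at 0 h and none at 3 h, at least 2.6-fold lower against a floor of 3 counts over the group. Leaving out replicate 3 gave 5 genes lower, and leaving out replicate 4 gave 4 lower and 1 higher.

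In resting cells the sum was 673.1, 441.2 and 432.7 CPM after 3 h of triptolide, against 1157, 2175 and 1105 CPM at 0 h. Here 19 of the 54 were lower and none higher, beside 30.3% lower and 26.6% higher of all genes, 56.8% in either direction (median −1.14). They were 4 of 5 H1, 5 of 13 H2A, 4 of 13 H2B, none of 10 H3 and 6 of 13 H4 genes. Hist1h1c stood at 79.8, 48.4 and 29.2 CPM after 3 h, against 338, 540.3 and 208 CPM at 0 h (−2.85 ± 0.45, edgeR adjusted p = 1.28e-07). Hist2h2bb (uncertain) fell by 2.22 ± 0.35, Hist1h4d by 2.24 ± 0.39 and Hist2h2ac (uncertain) by 2.69 ± 0.56 on the log2 scale, all without overlap. Of the 8 genes lower in activated and the 19 lower in resting cells 7 were shared, or 87.5% and 36.8% of these lists. The difference of the changes, activated minus resting, passed for none of the 54 in edgeR without a block or in DESeq2, beside 6.47% of all genes, and 4 had an unadjusted p under 0.05. It was 1.34 ± 0.52 for Hist1h4d (edgeR adjusted p = 0.11) and 1.17 ± 0.48 for Hist2h2bb (uncertain, adjusted p = 0.139). With a replicate block inside each state 5 passed, all with the smaller fall in activated cells and both of these among them, beside 8.60% of all genes higher. Without replicate 3, 11 genes were lower in resting cells.

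Against the spike-ins most of the family fell, as did most genes. With that scaling 44 of the 54 genes fell in activated cells, a share close to the 77.7% of all genes (median −2.28, beside −1.68 for all genes). In resting cells all 54 fell, beside 75.5% of all genes (median −2.79, beside −1.77). Per 1000 ERCC counts the 65 genes held 21.8, 34.3 and 17.3 exon counts at 0 h, 11.5, 14.2 and 9.28 at 1 h and 3.98, 8.30 and 3.17 at 3 h of triptolide in activated cells. In resting cells they held 25.4, 37.3 and 20.2 at 0 h, 12.9, 3.03 and 7.37 at 1 h and 5.01, 2.31 and 2.19 at 3 h, where 3.03 comes from the library with 2 histone counts. As ratios of geometric means 20.1% were left at 3 h in activated and 10.97% in resting cells.

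DRB gave another picture in activated cells, on the depth-scaled measure. The sum was 1559, 4008 and 1718 CPM after 3 h of DRB, against 884.1, 1747 and 853.7 CPM at 0 h. Every replicate was higher at 3 h, but the groups overlap through replicate 3 at 0 h. In all, 13 of the 54 genes were higher and none lower, beside 17.9% and 21.9% of all genes or 39.8% in either direction, with a median of 0.83 on this scale and of −0.79 on spike-ins, where 1 was higher and 17 lower, beside 1.41% and 78.2% of all genes. With a replicate block inside each state 20 were higher, beside 24.5% of all genes. Coding-sequence counts gave 6 higher and leaving out replicate 4 gave 8.

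The H4 gene Hist1h4i, on the minus strand of chromosome 13 (22040636 to 22041362), led the rise. It stood at 44.6, 116 and 48.0 CPM after 3 h of DRB, against 6.53, 4.68 and 4.97 CPM at 0 h (3.59 ± 0.39, edgeR adjusted p = 1.41e-11). The groups stand far apart, and Hist1h4i is the gene that was higher on spike-ins too (1.98, edgeR adjusted p = 4.07e-05). Of the H1 genes 3 of 5 were higher, with Hist1h1c at 445, 1234 and 622 CPM after 3 h against 162, 286 and 177 CPM at 0 h (1.88 ± 0.40, edgeR adjusted p = 0.00011; 0.20 on spike-ins). Hist1h1a (2.09 ± 0.43, and 0.42 on spike-ins) and Hist1h3a (uncertain, 2.23 ± 0.46, and 0.50 on spike-ins) did not overlap between the times either, and neither passed on spike-ins. Of the other classes 1 of 13 H2A, 3 of 13 H2B, 1 of 10 H3 and 5 of 13 H4 genes were called higher, and the H1 class made up 39.4, 43.0 and 49.0% of the family's counts after 3 h, against 29.5, 26.4 and 31.2% at 0 h. The summed plasma cell markers stood at 111, 78.5 and 208 CPM after 3 h and 74.0, 34.3 and 82.2 CPM at 0 h of DRB, and their part was not tested.

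Per 1000 ERCC counts the 65 genes held 17.2, 37.5 and 18.8 exon counts at 0 h, 11.3, 21.6 and 14.6 at 1 h and 14.3, 21.8 and 11.8 at 3 h of DRB. Each replicate was lower at 3 h than at 0 h, with 67.1% left as a ratio of geometric means, where triptolide left 20.1% in other libraries of the same state. The difference between the 3 h changes, DRB minus triptolide, was tested after the values had been seen. It was above 0 for 51 of the 54 genes (median 1.22), and 7 passed, all with the higher change under DRB, beside 1.04% of all genes higher and 0.335% lower. They include Hist1h4i (4.31 ± 0.71, edgeR adjusted p = 1.94e-05), Hist1h1c (3.27 ± 0.58, adjusted p = 0.000114), Hist1h2be (2.88 ± 0.60, adjusted p = 0.00129) and Hist1h1e (2.58 ± 0.66, adjusted p = 0.0215). The last 2 are not separate as annotated, since their spans overlap and Hist1h2be holds 24.6% of the 30-base windows of Hist1h1e. On coding-sequence counts Hist1h2be did not pass (2.31, edgeR adjusted p = 0.1), while Hist1h1e did (2.59, adjusted p = 0.0276). On spike-ins 5 passed, beside 0.475% of all genes higher, and with any 1 replicate number left out 2 or 3 did.

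**Figure D4:**
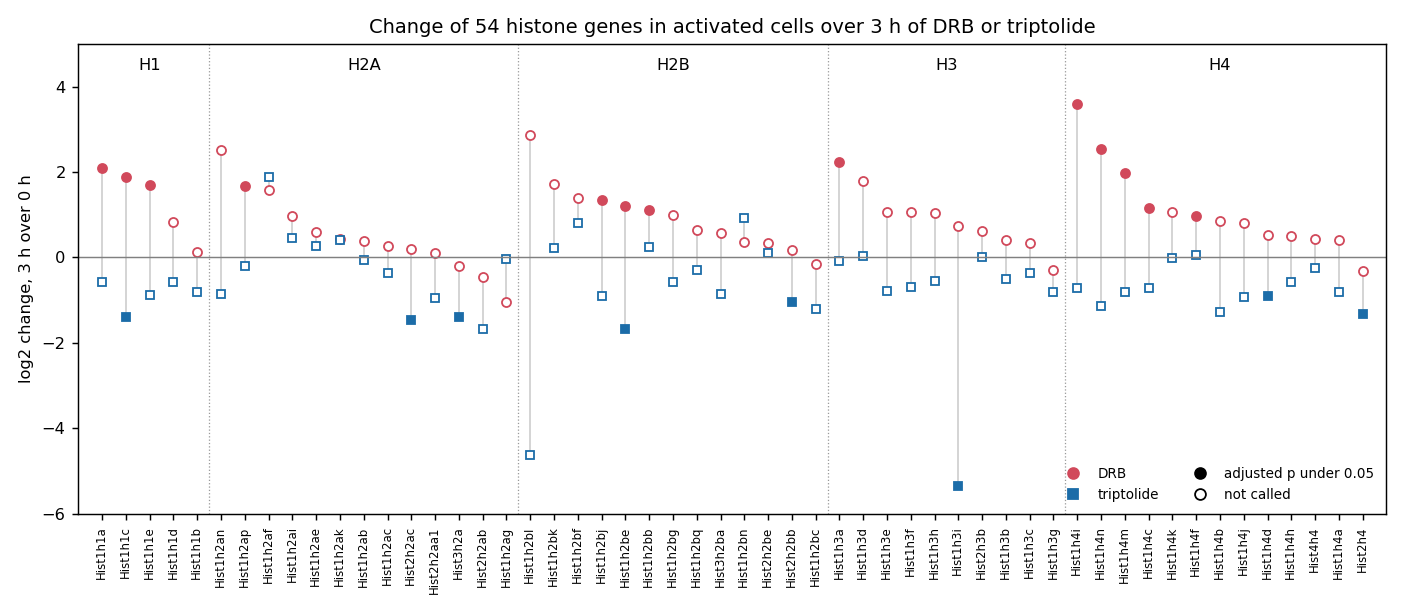
Log2 change over 3 h of DRB (circles) or triptolide (squares) in activated cells for each of the 54 genes, depth-scaled, by class and ordered by the DRB change. Filled symbols have an adjusted p under 0.05: 13 genes higher with DRB, led by Hist1h4i at 3.59, and 8 lower with triptolide. The fitted value of Hist1h3i with triptolide, at the bottom, rests on 3 h libraries without a count.

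Adding a translation inhibitor to the transcription inhibitor asks whether the loss needs translation. In resting cells the sum after 3 h was 1216, 934.1 and 991.0 CPM with triptolide and cycloheximide, against 673.1, 441.2 and 432.7 CPM with triptolide alone, without overlap. Calls were 9 of 54 higher (16.7%) and none lower, beside 18.8% and 16.4% of all genes (median 0.85). The share of histone genes called higher is under that of all genes. With the replicate block inside each state 14 were higher, beside 22.6% of all genes. Hist1h4d stood at 60.9, 60.1 and 56.6 CPM with both inhibitors, against 26.6, 10.9 and 15.4 CPM with triptolide alone (1.84 ± 0.40, edgeR adjusted p = 0.000174). Hist2h2bb (uncertain) rose by 1.58 ± 0.35, Hist1h1c by 1.59 ± 0.44 and Hist2h4 by 1.68 ± 0.48, each without overlap. Without replicate 2 there were 5 higher, and without replicate 4 there were 2. On spike-ins 37 were higher, beside 46.0% of all genes (median 1.73, beside 0.86 for all genes). Harringtonine with triptolide gave 3 higher (5.56%, again under the share of all genes) and none lower, beside 14.6% and 9.44% of all genes. With the block it gave 12, beside 18.7% of all genes. The 3 genes were Hist2h4 (1.65 ± 0.49, edgeR adjusted p = 0.00885), Hist1h2bj (uncertain, 1.71 ± 0.61) and Hist1h1c (1.17 ± 0.45), and none of them was called higher without replicate 2 or without replicate 4.

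In activated cells with triptolide none of the 54 genes passed when cycloheximide was added (edgeR), beside 27.3% of all genes, and 5 had an unadjusted p under 0.05. The sum was 594.2, 1153 and 468.0 CPM with both inhibitors and 590.5, 659.2 and 574.6 CPM with triptolide alone, and the groups overlap (median of the 54, 0.12). Hist1h2be stood at 7.63, 15.4 and 9.22 CPM with both, against 4.604, 3.48 and 4.84 CPM with triptolide (1.20 ± 0.49, edgeR adjusted p = 0.056). Hist2h4 stood at 70.8, 169 and 43.7 CPM against 42.0, 50.4 and 42.8 CPM (1.05 ± 0.45, adjusted p = 0.0668). Other settings gave calls here, with 2 genes higher in DESeq2 and 11 on spike-ins, the second beside 34.6% of all genes. The replicate block inside each state gave 2 higher and 2 lower, beside 42.1% of all genes in either direction. Harringtonine with triptolide gave 1 higher and 1 lower, beside 14.8% and 9.84% of all genes. The lower one was Hist1h1b, at 1.97, 3.31 and 1.42 CPM with both inhibitors against 13.8, 13.9 and 5.65 CPM with triptolide (−2.25 ± 0.61, edgeR adjusted p = 0.00338). Hist1h3i (uncertain), the higher one, had 12 counts with both and none with triptolide alone, at least 3.2-fold higher. Its edgeR adjusted p lay between 0.0705 and 0.29 with 1 replicate left out.

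With DRB in activated cells cycloheximide did raise histone mRNA. The sum was 4002, 4281 and 3974 CPM with DRB and cycloheximide, against 1559, 4008 and 1718 CPM with DRB alone, and only replicate 3 of DRB alone reached the level with both. Calls were 15 of 54 higher and none lower, beside 10.5% and 7.14% of all genes (median 0.95), and 30 with the replicate block inside each state, beside 15.1% of all genes. Without replicate 3 there were 28, and without replicate 2 or 4 there were 3. Hist1h4b (uncertain) stood at 45.2, 22.6 and 32.2 CPM with both, against 8.25, 11.4 and 12.2 CPM with DRB (1.73 ± 0.41, edgeR adjusted p = 0.0011). Hist1h3g (uncertain, 2.97 ± 0.71) and Hist1h4d (1.25 ± 0.31) rose without overlap. Hist1h2ag (uncertain) had 26 counts with both and 2 with DRB alone, a 13.9-fold ratio with a 95% exact binomial interval of 3.48 to 121 that covers counting error only. On spike-ins 39 were higher, beside 29.6% of all genes (median 1.71, beside 0.59 for all genes). Harringtonine with DRB gave 5 higher (9.26%, under the share of all genes) and none lower, beside 11.3% and 7.37% of all genes. With the block it gave 18 higher and 1 lower, beside 15.4% and 15.0%. The 5 include Hist1h4b (uncertain, 1.77 ± 0.40, edgeR adjusted p = 0.000427), Hist1h3g (uncertain, 2.54 ± 0.70) and Hist4h4 (1.12 ± 0.32). Without replicate 3 there were 14, and without replicate 4 there were 2.

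Per spike-in the levels with DRB and cycloheximide, 43.9, 54.8 and 47.0 counts per 1000 ERCC counts at 3 h, lay above the 17.2, 37.5 and 18.8 counts at 0 h of DRB. Those with triptolide and cycloheximide, at 7.85, 14.7 and 5.17 in activated cells, lay below the 21.8, 34.3 and 17.3 counts at 0 h of triptolide. In resting cells 18.1, 7.77 and 9.83 counts with triptolide and cycloheximide lay below 25.4, 37.3 and 20.2 counts at 0 h. Cycloheximide with triptolide for 3 h left 35.9% of the 0 h amount in activated cells, 41.6% in resting cells, and with DRB 210.2% in activated cells.

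**Figure D5:**
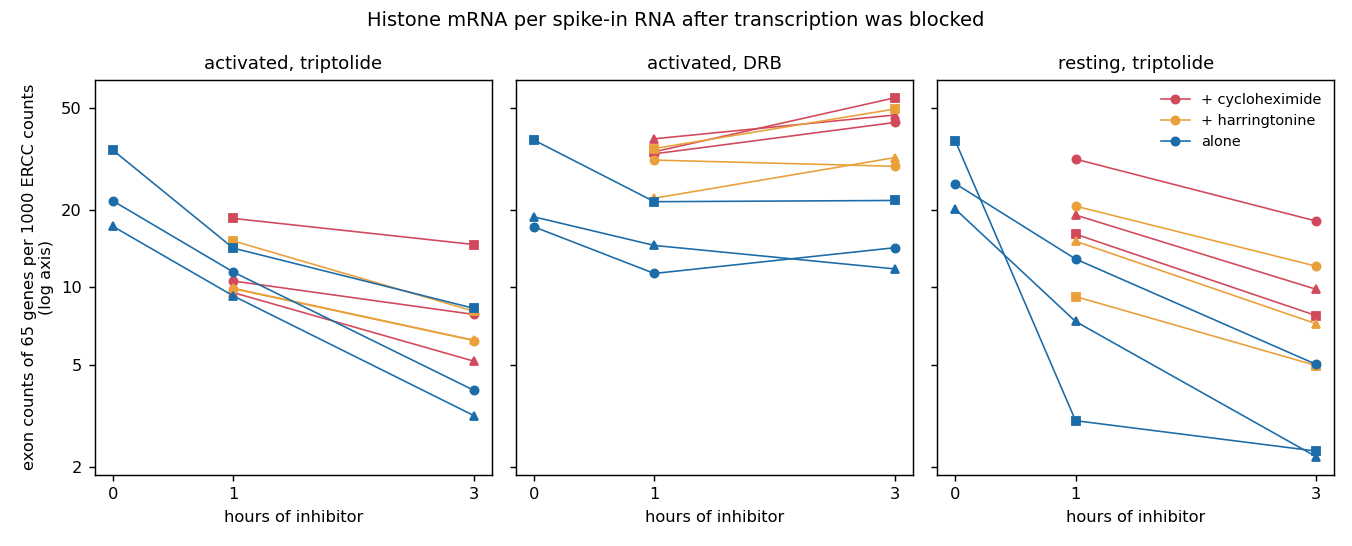
Exon counts of the 65 genes per 1000 ERCC counts (log axis) over 0, 1 and 3 h of triptolide or DRB, alone or with cycloheximide or harringtonine, 1 line per replicate (circle 2, square 3, triangle 4). After 3 h of triptolide alone the libraries hold 2.19 to 8.30, after 3 h of DRB alone 11.8 to 21.8, and with DRB and cycloheximide 43.9 to 54.8.

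Whether the cycloheximide effect depends on ongoing transcription was tested after the values had been seen, as the effect with triptolide minus the effect without it. In activated cells this difference was below 0 for 50 of 54 genes (median −1.57), and 13 passed, all lower, beside 9.69% of all genes lower and 14.2% higher. Hist1h4c (−2.61 ± 0.52, edgeR adjusted p = 7.06e-05), Hist1h4i (−3.34 ± 0.85, adjusted p = 0.00171), Hist1h2ak (uncertain, −2.50 ± 0.68, adjusted p = 0.0034) and Hist1h1e (−2.57 ± 0.71, adjusted p = 0.00446) led. Without replicate 4 the number was 1, without replicate 2 it was 3, and without replicate 3 it was 24. On spike-ins 7 passed in activated cells, all lower, a count given here without the share of all genes. In resting cells 2 passed, beside 5.01% lower and 10.1% higher of all genes, Hist1h4f (uncertain, −1.46 ± 0.50, edgeR adjusted p = 0.035) and Hist1h2bn (uncertain, −2.65 ± 0.93, adjusted p = 0.0388). With the replicate block inside each state it was 7, beside 11.6% of all genes lower, and on spike-ins none, beside 1.38%.

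Members called in opposite directions under different inhibitors are given here on the depth-scaled measure, in comparisons that share no library. Of the 19 genes lower with triptolide in resting cells, 17 were higher with cycloheximide alone in resting cells, where 43 of all 54 members were. They include Hist1h1c, Hist2h2ac (uncertain), Hist1h2be, Hist2h2bb (uncertain), Hist1h4c, Hist1h4d and Hist4h4. Of the 8 lower with triptolide in activated cells, 7 were higher with cycloheximide alone in activated cells, where 42 of all 54 were. Of the 13 genes lower in activated than in resting untreated cells at 0 h, 10 were among those 42, including Hist1h1a, Hist1h1d, Hist3h2a and Hist1h4j. None of these counts was tested against the share of all members, to which they lie close. Hist1h1c and Hist1h2be were lower with triptolide and higher with DRB in activated cells on this measure, but on spike-ins their DRB changes were 0.20 (edgeR adjusted p = 0.688) and −0.38 (edgeR adjusted p = 0.352). On coding-sequence counts the DRB change of Hist1h2be did not pass (0.94, edgeR adjusted p = 0.0624), while that of Hist1h1c did (1.72, adjusted p = 0.000227).

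The genes that make and degrade histone mRNA did not move as a block. Of 32 such genes, 30 were tested. The shares of all genes called with cycloheximide are those given above for each state, and the counts here were not tested against them. With cycloheximide in activated cells 2 were higher and 6 lower (median −0.07). The higher ones were the uridine-adding enzymes Tut7 (1.39 ± 0.18, edgeR adjusted p = 5.8e-09) and Tut4 (0.84 ± 0.21, adjusted p = 0.000983). The lower ones were Lsm2, Lsm6, Lsm7 and Snrpd3 of the Sm and Lsm rings, the decapping enzyme Dcp2 and Npat, the coactivator of histone gene transcription (−0.68 ± 0.21, edgeR adjusted p = 0.00782). In resting cells the exosome subunit Exosc10 (0.85 ± 0.18) and Upf1 (0.58 ± 0.19, edgeR adjusted p = 0.0171) were higher with cycloheximide, and Lsm6 and Dcp2 lower. Slbp stood at 0.44 ± 0.26 (edgeR adjusted p = 0.203) in activated and −0.15 ± 0.25 (adjusted p = 0.698) in resting cells, and Eri1 at 0.23 ± 0.18 (adjusted p = 0.379) and 0.10 ± 0.18 (adjusted p = 0.73).

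Under transcription inhibitors Slbp fell relative to the typical mRNA. It fell by 1.91 ± 0.34 with triptolide in activated cells (edgeR adjusted p = 2.27e-06), by 1.85 ± 0.29 in resting cells (adjusted p = 1.27e-07) and by 1.01 ± 0.29 with DRB (adjusted p = 0.00388) on the log2 scale. Lsm10 of the U7 ribonucleoprotein, which guides the 3′ cut of histone mRNA, fell in all 3 (by 1.62 ± 0.45, 3.29 ± 0.60 and 1.42 ± 0.46 in the same order), as did the cleavage factor Cpsf2 (by 1.87 ± 0.17, 2.45 ± 0.19 and 1.24 ± 0.16). Casp8ap2, a partner of U7-dependent processing, was higher in all 3 relative to the typical mRNA (3.14 ± 0.33, 2.04 ± 0.32 and 1.28 ± 0.32), though at −0.24 with DRB on spike-ins. Slbp was also lower in activated than in resting untreated cells, by −1.02 ± 0.28 at 0 h (edgeR adjusted p = 0.004) and −1.02 ± 0.26 at 3 h (adjusted p = 0.000514), while Upf1 was higher by 0.78 ± 0.20 and 0.95 ± 0.19.

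Replacement histones mostly carry poly(A) tails and are made through the cell cycle. Of 12 listed, 9 were tested, and under cycloheximide 2 were higher and 1 lower in activated and 1 higher in resting cells (medians 0.06 and 0.57). H3f3b, which encodes the H3.3 protein, stood at 0.55 ± 0.37 in activated (edgeR adjusted p = 0.283) and 1.17 ± 0.37 in resting cells (adjusted p = 0.0135), and H3f3a, which encodes the same protein, at −0.40 ± 0.41 and −0.62 ± 0.41. H1f0, the replacement linker histone, was higher in activated cells at 1.48 ± 0.41 (edgeR adjusted p = 0.00365), and the macroH2A gene H2afy lower at −0.73 ± 0.19 (adjusted p = 0.00149). Of 27 S phase genes tested, 2 were higher and 1 lower with cycloheximide in activated cells and 4 higher and 1 lower in resting cells. The replication licensing factor Cdt1 led in activated cells at 1.68 ± 0.28 and the helicase subunit Mcm7 in resting cells at 0.84 ± 0.18. Of 16 histone chaperone genes, which carry histones to DNA, 1 was higher and 4 lower in activated and 2 lower in resting cells.

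Over the 35 groups the genes whose mean level was most like the summed level of the family were Stk17b (Pearson r = 0.854 of log2 group means), Pde4b (0.854), Csrnp2 (0.831), Tnfaip3 (0.824) and Atg101 (0.80), among 7898 other genes of at least 10 CPM. The groups share libraries' depth and replicate numbers, so these values are a description. Stk17b, a kinase, ran from 168 CPM in resting cells with triptolide for 3 h to 2122 CPM in activated cells with cycloheximide for 3 h. Atg101, an autophagy factor, ran from 3.89 CPM in activated cells with triptolide for 3 h to 74.2 CPM in resting cells with cycloheximide for 3 h.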

How the data were processed

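CD4+ T cell RNA was sequenced in 3 libraries for each of 35 groups. The submitters' processing notes name TopHat2 2.0.13, Bowtie 1.1.1.0, HTSeq and the mm10 build. The authors deposited whole-number read counts per gene, without scaling, over exons, coding sequence and the 92 ERCC RNAs. Another 315 columns of per-library values were not used. Reads outside gene counts made up 75.84 to 97.25% per library, and 50.52 to 91.48% had no unique position.

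Groups come from the sample titles. Genes were filtered with filterByExpr, and all libraries were fitted as 35 group means with edgeR 4.0.16 in R 4.3.3 (TMM, robust quasi-likelihood F test, Benjamini-Hochberg over 10741 genes, calls at adjusted p under 0.05). The SE is the log2 change divided by the root of F. CPM uses TMM-scaled library sizes. In all, 19 comparisons were planned and 3 added after the values had been seen. The members and gene lists were chosen with earlier results of these data known. On simulated counts for activated cycloheximide against untreated cells at 3 h (10741 genes), 70 of 100 genes changed 2-fold and 96 of 100 changed 4-fold were recovered, with 4 false calls.

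Named members are the 3 highest per kb in each class, up to 4 called genes of smallest p per direction and comparison (2 where none passed), and genes called in opposite directions in comparisons without a shared group. Others named are called genes of the histone mRNA list with Slbp, Eri1 and Upf1, and of other lists the 2 of smallest p and the 2 most abundant. Genes named outside this rule, such as Hist2h2aa1 under cycloheximide, were chosen after their values were seen.

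Alternatives were DESeq2 1.42.0, RLE factors, ERCC scaling, no filter, coding-sequence counts, each replicate number left out, the replicate number as a block and, added later, the block within each cell state and leaving out the 2 shallowest libraries. Same-numbered libraries of 1 state deviated together (mean correlation 0.329, against −0.163 for other numbers), and every pair was above 0.1 in 12 of 17 two-group comparisons, which were taken as paired by the data, since the labels tie no number to a mouse. The main calls, SEs and p-values come from the fit without a block and do not use this pairing. Counts that a block moved are given in the closing section. All replicate pairs differed by more than sampling noise. Their chi-square over genes, divided by its degrees of freedom, was at least 1.21, and at least 3.14 where the shallowest library was left out.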

Additional observations from a re-analysis of the deposited data

Results flagged for a closer look

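Of the differences between groups tested, 3 had histone genes past the threshold. The change over 3 h in activated cells, DRB minus triptolide, passed for 7 of 54 genes, all with the higher change under DRB, beside 1.04% of all genes, and for 5 on spike-ins. The cycloheximide effect at 3 h in activated cells, with triptolide minus without, passed for 13, all lower with triptolide, beside 9.69% of all genes lower. In resting cells it passed for 2, both lower with triptolide, beside 5.01% of all genes lower or 15.1% in either direction, and for none on spike-ins, so those 2 calls are not a result about the histone genes. All 3 differences were chosen after the values had been seen, and the cause of none was tested.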

How the results depend on the processing

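Counts below are of histone genes called, either direction, out of 54 (edgeR unless named). They stand without the share of all genes, which moves with the setting as well. They show how far the calls depend on the setting and, without that share, are not results about the histone genes. Spike-in scaling gave 7 for activated against resting cells at 0 h (13 with depth scaling) and 8 at 3 h (21), 44 for triptolide in activated (8) and 54 in resting cells (19), and 53 for harringtonine in resting cells (27). Against triptolide alone it gave 11 with cycloheximide (0) and 4 with harringtonine (2) in activated cells, against 37 (9) and 20 (3) in resting ones. Against DRB alone it gave 39 with cycloheximide (15) and 27 with harringtonine (5). For the cycloheximide effect with triptolide minus without it gave 7 in activated (13) and 0 in resting cells (2). With no filter on low counts there were 23 for activated against resting at 0 h, 1 for activated untreated over time, 4, 23 and 15 for cycloheximide added to triptolide in activated, DRB in activated and triptolide in resting cells, and 13 and 14 for harringtonine added to DRB in activated and triptolide in resting cells. For the differences of effects no filter gave 2 for triptolide between states, 1 for cycloheximide between states, 14 for DRB minus triptolide, and 21 in activated and 6 in resting cells, for cycloheximide with triptolide minus without.

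A replicate block gave 3, 24, 11 and 7 for cycloheximide added to triptolide and to DRB in activated cells, harringtonine added to DRB, and harringtonine added to triptolide in resting cells, 1 for triptolide between states and 20 for cycloheximide with triptolide minus without in activated cells. The replicate block inside each state, chosen after seeing the data, gave 24 for activated against resting at 0 h, 20 for DRB, 43 for harringtonine in resting cells, then 4, 30 and 14 when cycloheximide was added to triptolide in activated, DRB in activated and triptolide in resting cells, and 19 and 12 for harringtonine added to DRB and to triptolide in resting cells. For the differences it gave 5 for triptolide and 1 for cycloheximide between states, and 24 in activated and 7 in resting cells, for cycloheximide with triptolide minus without. Coding-sequence counts gave 6 for activated against resting at 0 h, 6 for DRB, 4 for DRB minus triptolide and 8 for cycloheximide with triptolide minus without in activated cells, and DESeq2 gave 2 for cycloheximide added to triptolide in activated cells. The cause was not tested.

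With each replicate number left out in turn, activated against resting ranged from 1 to 17 at 0 h and from 7 to 29 at 3 h. Triptolide ranged from 5 to 6 in activated and 11 to 18 in resting cells, and DRB from 8 to 11. Cycloheximide alone ranged from 23 to 43 in activated and 18 to 43 in resting cells, and harringtonine alone from 24 to 37 and 8 to 29. Added to DRB, cycloheximide ranged from 3 to 28 and harringtonine from 2 to 14. Added to triptolide, cycloheximide ranged from 2 to 10 in resting cells, and harringtonine from 0 to 2 in activated and 0 to 3 in resting cells. The differences ranged from 0 to 1 for triptolide and for cycloheximide between states, from 2 to 3 for DRB minus triptolide, and from 1 to 24 in activated and 0 to 2 in resting cells, for cycloheximide with triptolide minus without. Leaving out the 2 shallowest libraries, also chosen after seeing the data, kept every count within 1.5 times. Of the other values, 67 lost and 15 gained their call under some alternative, 741 did neither, 12 sums moved under spike-ins, and none changed direction while called. Depth limits genes with few counts, since 11 of 65 could not be tested.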
